A study of Homo sapiens with 2 samples.

Results

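Core histone genes of the HIST2 cluster on chromosome 1 were examined in RNA recovered with an antibody against SFRS8, a regulator of pre-mRNA splicing also named SFSWAP, from ARP1 cells, a line established from multiple myeloma, a cancer of plasma cells. The members were the 8 genes of this cluster named in the deposited peak list. They comprise 3 H2A genes (HIST2H2AA3, HIST2H2AA4 and HIST2H2AC), 1 H2B gene (HIST2H2BF), 2 H3 genes (HIST2H3A and HIST2H3D) and 2 H4 genes (HIST2H4A and HIST2H4B). They were listed with 6 of the 236 distinct peaks, since 2 peaks were each listed with 2 member genes. The study had 2 libraries, 1 of RNA from the SFRS8 immunoprecipitation (IP) and 1 of input RNA taken without antibody, both from ARP1 cells. With 1 library in each group, no value below has a replicate check. The members were chosen by their presence in the peak list, which rests on the reads of both libraries, so having a peak is not a finding, and their reads and ratios are given as a description of these 2 libraries, with intervals for counting error and no test between IP and input.

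Core histones are the proteins around which DNA is wound in nucleosomes, each of which holds H2A, H2B, H3 and H4. Replication-dependent histone genes are short, mostly lack introns, are read chiefly while DNA is copied, and most of their mRNAs end in a stem-loop bound by SLBP in place of a poly(A) tail. The HIST2 cluster contains a duplicated segment in which copies of the same histone gene lie on opposite strands.

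Sequences next to the transcription starts show how alike the duplicated copies are there. Sequence of the gene bodies was not compared, so how reads divide between partners cannot be told from these windows. All 6 peaks hold bases beyond them. For HIST2H2AA3, HIST2H4A, HIST2H2AA4 and HIST2H2AC the peak begins past the window of the gene, 90, 94, 190 and 333 bases after its start. The RefSeq windows used (GRCh38.p14) run from 250 bases before the start to 50 bases after it, and all 8 members were matched to one by their earlier symbol. The windows of HIST2H4A and HIST2H4B were identical at 300 of 300 bases. Those of HIST2H2AA3 and HIST2H2AA4 were identical at 299 of 299 aligned bases, with annotated starts 1 base apart. HIST2H3A matched HIST2H3C, a gene of the cluster without a listed peak, at 296 of 296 aligned bases, with starts 4 bases apart. Genes of the same family that are not duplicates differed. HIST2H3D matched HIST2H3A at 107 of 299 bases, and HIST2H2AA3 matched HIST2H2AC at 90 of 299, in the best alignment without gaps. The 120 bases before the start are printed here for 1 gene of each pair and for the unpaired genes, 5′ to 3′ along the gene, because the pairs share them and because both shared peaks span such a region. Capitals mark matches, on either strand, to the 3 motifs described after the sequences.
HIST2H2AA3 (chr1:149842751-149842870, minus strand): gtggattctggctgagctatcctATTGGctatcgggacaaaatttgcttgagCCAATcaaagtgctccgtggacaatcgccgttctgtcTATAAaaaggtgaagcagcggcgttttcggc
HIST2H2AC (chr1:149886798-149886917, plus strand): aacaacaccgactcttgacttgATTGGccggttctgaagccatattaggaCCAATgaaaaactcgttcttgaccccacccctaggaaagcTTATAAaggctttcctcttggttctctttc
HIST2H2BF (chr1:149812371-149812490, minus strand): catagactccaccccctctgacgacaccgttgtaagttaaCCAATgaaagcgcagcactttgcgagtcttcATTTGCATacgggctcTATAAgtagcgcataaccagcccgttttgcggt
HIST2H3A (chr1:149852488-149852607, plus strand): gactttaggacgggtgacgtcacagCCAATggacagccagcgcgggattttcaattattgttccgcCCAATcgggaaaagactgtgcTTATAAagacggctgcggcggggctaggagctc
HIST2H3D (chr1:149813694-149813813, minus strand): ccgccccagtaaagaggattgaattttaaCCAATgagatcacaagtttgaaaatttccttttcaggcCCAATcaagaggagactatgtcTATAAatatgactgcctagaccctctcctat
HIST2H4A (chr1:149832537-149832656, plus strand): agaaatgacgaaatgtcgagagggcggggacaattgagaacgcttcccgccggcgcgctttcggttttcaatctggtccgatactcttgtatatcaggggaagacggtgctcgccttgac

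The core of the TATA box was searched as TATAA, which reads TTATA when it lies on the other strand. The core of the CCAAT box was searched as CCAAT, with ATTGG as its form on the other strand. The octamer known from H2B promoters was searched as ATTTGCAT, or as ATGCAAAT in the opposite orientation. Within 250 bases before the start, 6 of the 8 members held TATAA and 6 held CCAAT, on either strand, against 18.9% and 32.0% of 35116 RefSeq windows of that length. These were the H2A, H2B and H3 genes. The H4 copies held none of the 3 motifs in this window. The octamer stood in 2 members, against 1.63% of windows. In HIST2H2BF it began at base -49, counted from -1 for the last base before the start, and in HIST2H2AC it began at -197 on the other strand. HIST2H2AC shares that upstream region with HIST2H2BE, an H2B gene read in the opposite direction. TATAA began between -33 and -29 in all 6 genes that held it, with another copy at -209 in HIST2H2AC, and where it reads TTATAA both strands hold it. The motifs are matches of letters and were not linked to the reads.

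The peaks of the members lay on the strand of their gene for 8 of 8 genes. The list pairs peaks with genes of the same strand, as 176 of 176 rows with a symbol and a RefSeq strand showed, so this is a property of the list. On chromosome 1 all peak borders fell on a grid, of 250 bases on the plus strand and 220 bases on the minus strand. The members on the plus strand were 500 to 2250 bases wide and those on the minus strand 440 to 1540 bases. Duplicated copies on opposite strands were thus outlined differently. HIST2H2AA3 and HIST2H4B, on the minus strand, each had a peak of 440 bases, or 2 grid steps. The peak listed with their partner HIST2H2AA4 measured 2250 bases and that of HIST2H4A 2000 bases, on the plus strand.

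**Figure D1:**
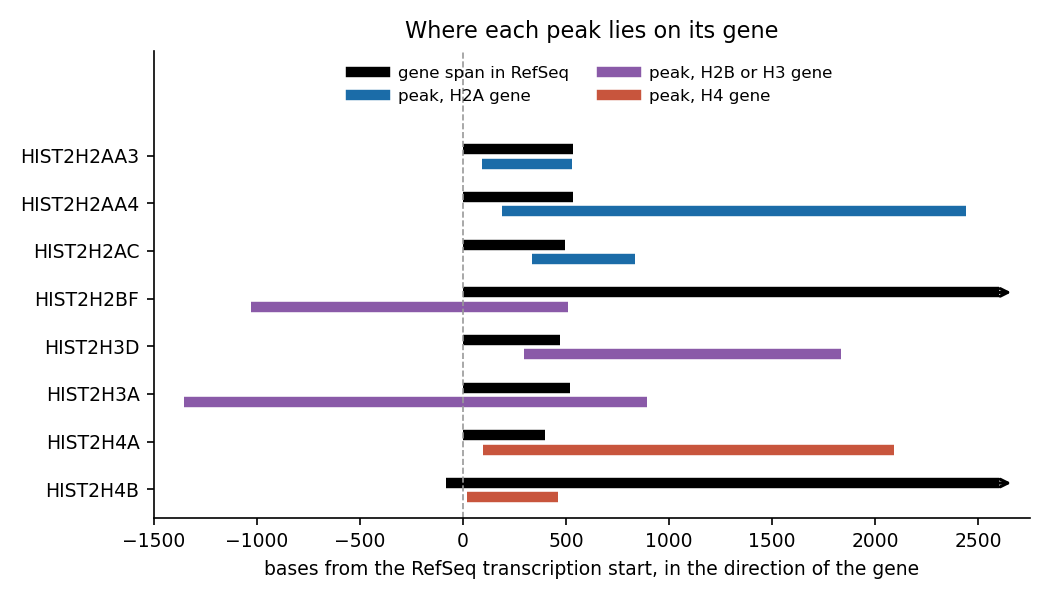
Position of each peak (coloured) relative to the RefSeq transcription start of its gene and to the gene's RefSeq span (black; arrows mark spans that run past the axis), in bases along the gene. The peaks of HIST2H2AA3 and HIST2H4B lie wholly within the gene, whereas the peak shared by HIST2H2BF and HIST2H3D and the peak shared by HIST2H2AA4 and HIST2H3A run across the space between the genes.

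Among the H2A genes, HIST2H2AA3 (ENSG00000203812) was covered most completely. Its peak ran from 149842221 to 149842660 (GRCh38, as are all positions), from base 90 to base 529 after the start of a gene with a RefSeq span of 533 bases. HIST2H2AA4 (ENSG00000272196) shared a peak from 149851251 to 149853500 with the H3 gene HIST2H3A (ENSG00000203852). Of these 2250 bases, 374 lay in HIST2H2AA4 and 882 in HIST2H3A as listed, and 994 in neither. The whole peak also lay within the RefSeq span of HIST2H4B on the opposite strand. All 250 bases before the start of HIST2H3A lay inside this peak. HIST2H2AC (ENSG00000184260) had a peak from 149887251 to 149887750, which began 333 bases after the RefSeq start of this 494-base gene. The listed gene held 114 of its 500 bases (22.8%), and 282 bases overlapped HIST2H2AB, an H2A gene on the opposite strand that has no listed peak. Reads of overlapping genes can be told apart only if the libraries keep the strand, which the sources used here do not state.

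The H2B gene HIST2H2BF (ENSG00000203814) and the H3 gene HIST2H3D (ENSG00000183598) shared a peak from 149811861 to 149813400 on the minus strand. It held 513 bases of HIST2H2BF as listed, at the 5′ end of a gene of 29685 bases, and 130 bases of HIST2H3D, at its 3′ end. The other 897 bases lay in neither gene and included all 250 bases before the start of HIST2H2BF. A value for H2B alone or H3 alone could therefore not be had from the list. Counted from the matching starts of their windows, the H4 peaks began 94 bases in for HIST2H4A (ENSG00000270882) and 19 bases in for HIST2H4B (ENSG00000270276). The HIST2H4A peak ran from 149832751 to 149834750 and lay wholly in the listed gene of 7109 bases, but RefSeq gives that gene 396 bases, of which the peak covered 302. The HIST2H4B peak ran from 149860701 to 149861140 and lay wholly in the listed gene of 7166 bases, for which RefSeq gives a span of 16753 bases that begins 81 bases before the start used here.

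Together, the members' 6 peaks covered 7170 bases and held 229 reads of the IP and 857 of the control, or 31.9 IP reads and 119.5 control reads per kilobase. The strength of a peak is given as the ratio, its IP reads divided by its control reads. Library totals are unknown, so a ratio has meaning only beside other peaks, and the column without a prefix in the list was read as the IP library. The header does not state this, and every order would turn if the libraries were exchanged. The intervals in parentheses are 95% Clopper-Pearson intervals (exact), based on how the reads of a peak divide between IP and control. They cover counting error only, since there was 1 library in each group. Copies made by PCR can count a molecule more than once, and the intervals make no allowance for them. Nor do they allow for reads counted at both copies of a duplicated gene, which would make the intervals of sums too narrow.

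**Figure D2:**
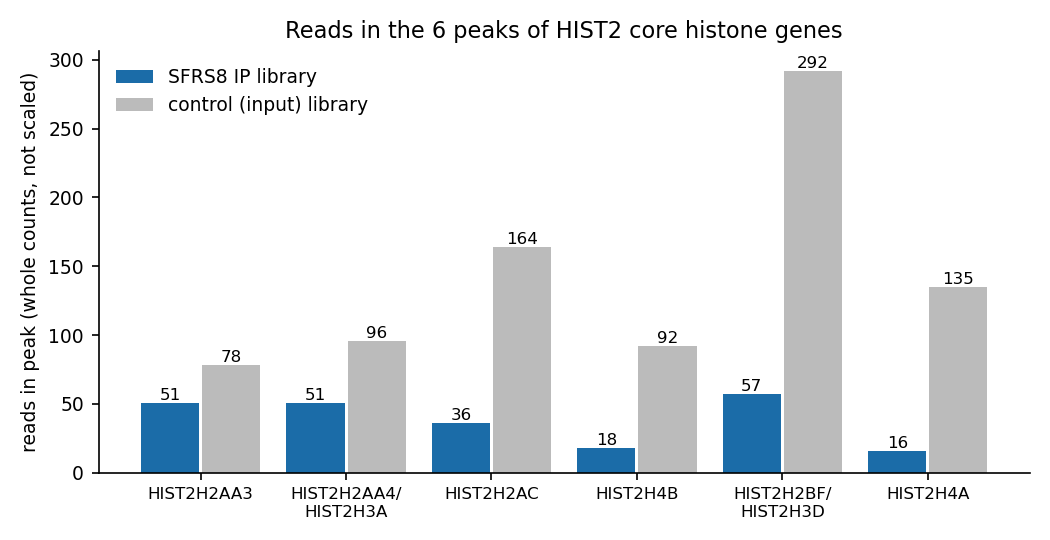
Whole reads counted in each of the 6 peaks in the SFRS8 IP library (blue) and the control library (grey), not scaled to depth, in order of falling ratio. All 6 peaks have more control than IP reads, and the peaks of HIST2H2AA3 and HIST2H2AA4/HIST2H3A have 51 IP reads each.

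In HIST2H2AA3, 51 IP reads stood against 78 control reads, which gives 0.654 (0.450 to 0.943), the highest among the members and place 54 of 236 by ratio. The peak of HIST2H2AA4 and HIST2H3A also had 51 IP reads, with 96 control reads and a ratio of 0.531 (0.371 to 0.754), place 64. These were the only member peaks whose interval lay wholly above the median ratio of all peaks, 0.190. Such an interval was found for 36.4% of all peaks and for 2 of the 6 member peaks. An interval wholly below the median was found for 0 of 6 members and 40.3% of all peaks. HIST2H2AC came next, with 36 IP against 164 control reads and 0.220 (0.149 to 0.316), place 105. HIST2H4B followed with 18 against 92 reads and 0.196 (0.111 to 0.327). The shared peak of HIST2H2BF and HIST2H3D had 57 IP reads against 292 in the control, the most of any member in either library, and a ratio of 0.195 (0.144 to 0.260). HIST2H4A was lowest, with 16 IP reads against 135 in the control, 0.119 (0.0659 to 0.200) and place 146. The highest ratio was 5.52 times the lowest.

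**Figure D3:**
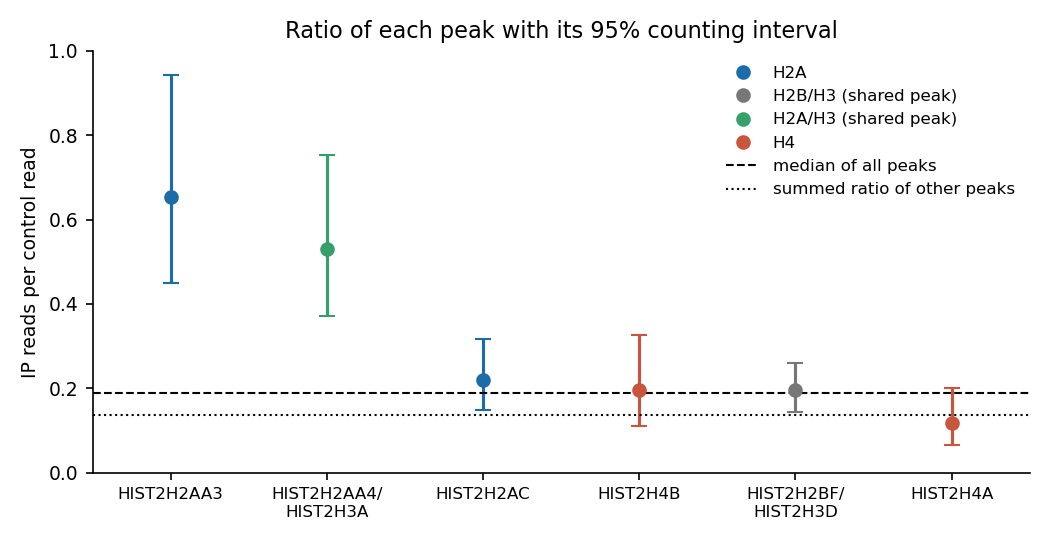
IP reads per control read in each member peak (points) with exact 95% counting intervals (bars), coloured by histone family, with the median ratio of all 236 peaks (0.190, dashed) and the summed ratio of the 230 other peaks (0.137, dotted). The peaks of HIST2H2AA3 and HIST2H2AA4/HIST2H3A, at 0.654 and 0.531, stand above the other 4, which range from 0.119 to 0.220.

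The order fell into an upper and a lower set. Ratios were compared as ratios of ratios with conditional exact 95% intervals, for 11 pairs in all and without adjustment for that number. Since the peaks were ordered by the values compared, these factors describe the order and do not test it. The peak of HIST2H2AA3 and the peak that its copy HIST2H2AA4 shares with HIST2H3A differed by a factor of 1.23 (0.732 to 2.07), within counting error. HIST2H2AA4/HIST2H3A stood above the next peak, HIST2H2AC, by a factor of 2.42 (1.43 to 4.10). HIST2H2AA3 stood above HIST2H2AC by 2.98 (1.74 to 5.10). Below that, neighbours in the order did not differ beyond counting error. HIST2H2AC stood to HIST2H4B as 1.12 (0.582 to 2.22), HIST2H4B to HIST2H2BF/HIST2H3D as 1.0 (0.527 to 1.83), and the latter to HIST2H4A as 1.65 (0.892 to 3.19).

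By family, the H2A peaks had the highest summed ratio and the H4 peaks the lowest. The 3 H2A peaks summed to 138 IP reads against 338 in the control, or 0.408 (0.332 to 0.499). The 2 H3 peaks summed to 108 against 388, or 0.278 (0.223 to 0.345), but each also covers a gene of another family. H2B had only the peak shared with HIST2H3D (0.195). The 2 H4 peaks summed to 34 against 227, or 0.150 (0.101 to 0.215). This interval overlaps that of the H2B peak, 0.144 to 0.260. In peaks listed with a single gene, H2A had 87 IP reads against 242 in the control, or 0.360 (0.278 to 0.461), 2.40 times that of H4 (1.53 to 3.83). This rested on HIST2H2AA3, since HIST2H2AC alone stood to H4 as 1.47 (0.851 to 2.52), an interval that includes equality. Peaks listed with a single gene also hold bases outside it. Of the HIST2H2AC peak, 114 of 500 bases lay in the listed gene, and of the HIST2H4A peak, 302 of 2000 in the RefSeq gene.

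The peaks listed with H2A genes were themselves uneven. Both peaks listed with a HIST2H2AA gene, a grouping chosen after the values were seen, had 102 IP reads against 174 in the control, or 0.586 (0.455 to 0.753). Of these, 51 IP and 96 control reads belong to the peak shared with HIST2H3A, which holds more bases of the H3 gene than of HIST2H2AA4. The other 4 member peaks, HIST2H2AC among them, had 127 against 683, or 0.186 (0.153 to 0.225), close to the median of all peaks.

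For the H4 pair and for the peaks listed with the HIST2H2AA pair, the factor between the ratios was within counting error, while the read densities did not match. HIST2H3A could not be compared with HIST2H3C, which has no listed peak. HIST2H2AA3 had 116 IP and 177 control reads per kilobase, and HIST2H2AA4/HIST2H3A had 22.7 and 42.7 in a wider peak. HIST2H4B had 40.9 IP and 209 control reads per kilobase, and HIST2H4A 8.0 and 67.5. The factor between the H4 ratios was 1.65 (0.750 to 3.65). In reads rather than density the H4 partners had 18 and 16 IP reads. For H2A, the HIST2H2AA3 peak and the peak of HIST2H2AA4 and HIST2H3A had 51 each, but the latter is no count of HIST2H2AA4 alone. Whether reads that match both copies were counted at each, at 1 of them or at neither is not given in the sources used here, so the split between partners is uncertain and the copies are not independent measurements. The intervals of sums over copies, and of factors between copies, nevertheless treat their counts as independent. By strand, the 3 minus-strand members had a summed ratio of 0.273 (0.222 to 0.333) and the 3 plus-strand members 0.261 (0.208 to 0.325).

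Set beside the rest of the list, no member had more IP than control reads, as 16.1% of all peaks had. The interval lay wholly below 1 in 6 of 6 member peaks and in 76.3% of all peaks. A ratio above the median was found in 5 of 6 members, where the share over all peaks is 50.0% by construction. HIST2H4A was the exception, and HIST2H2AC, HIST2H4B and HIST2H2BF/HIST2H3D exceeded the median by less than their counting error. Summed over the members the ratio was 0.267 (0.230 to 0.310), beside 0.137 (0.134 to 0.140) over the other 230 peaks. The median was 0.208 over the members and 0.183 over the others. The members held 1.90% of IP reads in peaks (1.66 to 2.16) and 0.982% of control reads in peaks (0.918 to 1.05).

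**Figure D4:**
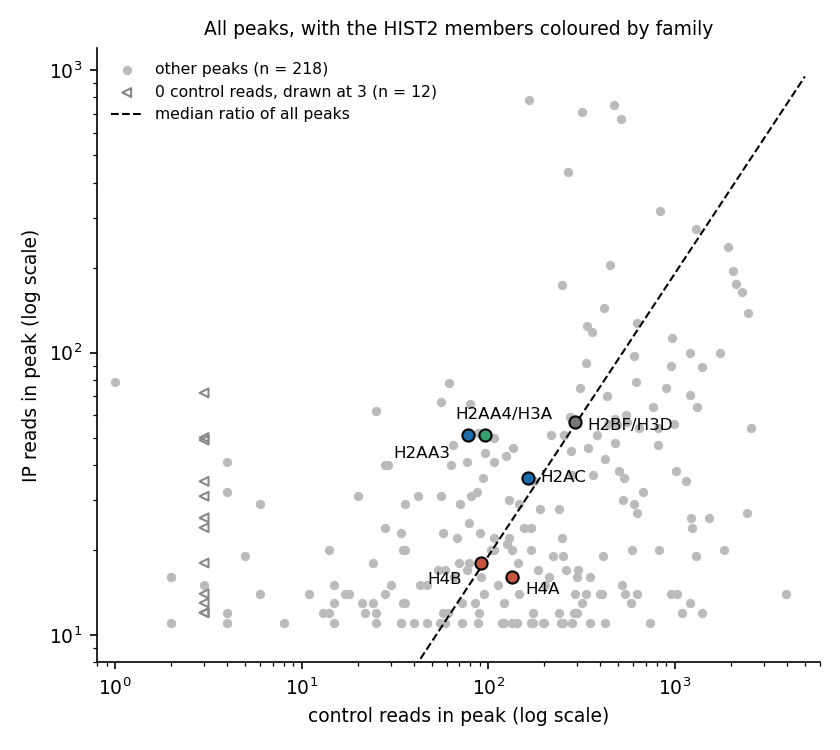
IP reads against control reads in every peak, both on log scales; grey points are other peaks, open triangles the 12 peaks with 0 control reads drawn at 3, and coloured points the 6 members (blue H2A, green H2A/H3, grey with a dark edge H2B/H3, red H4). H2AA3 and H2AA4/H3A lie above the dashed line of the median ratio, and the other members lie near it.

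The list held no peak under 11 IP reads, and few control reads alone thus gave a high ratio. The members, with 16 to 57 IP reads, were therefore also set beside peaks with similar control reads, from 0.5 to 2 times their own. HIST2H2AA3 exceeded 57 of 62 such peaks, whose median was 0.229. HIST2H2AA4/HIST2H3A exceeded 57 of 66, with a median of 0.198. HIST2H2AC and HIST2H2BF/HIST2H3D each exceeded 54, of 70 and of 71 peaks, with medians of 0.132 and 0.0959. The H4 peaks lay in the lower part of theirs. HIST2H4B exceeded 29 of 66 (median 0.203) and HIST2H4A 25 of 69 (median 0.153). On this scale 4 of 6 members lay above the reference, while a median has as many peaks above it as below by construction. Both H4 copies lay below it, but not beyond counting error. Their intervals, 0.111 to 0.327 for HIST2H4B and 0.0659 to 0.200 for HIST2H4A, include the medians of their matched peaks.

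By IP read density, 5 of 6 members lay above the median of all peaks, which has as many peaks above it as below by construction. Control density was high as well. Every member but HIST2H2AA4/HIST2H3A, at 42.7 control reads per kilobase, lay above the median control density of 62.8. HIST2H2AA3 held place 3 of the list by IP density, with 116 reads per kilobase against a median of 16.1 over all peaks. HIST2H2AC had the highest control density among the members, 328 reads per kilobase against a median of 62.8, with 72.0 IP reads per kilobase. HIST2H4A was the only member below the median IP density, at 8.0. In the authors' deposited table HIST2H2AC had a log-odds score of 391, place 18 of 236, with -308 for the control, and HIST2H2AA3 had a score of 132, place 70. The scores of the other 4 ran from 55.0 for HIST2H4A to 87.1 for HIST2H2BF/HIST2H3D, around the list's median of 79.1. The order by the authors' score thus placed HIST2H2AC first, whereas by ratio HIST2H2AA3 and HIST2H2AA4/HIST2H3A stood before it. By score HIST2H2AA4/HIST2H3A, at 62.8 and place 133 of 236, lay below the list's median and below HIST2H4B and HIST2H2BF/HIST2H3D. The p-values in the authors' deposited table were listed at 0 for HIST2H2AA3 and HIST2H2AC, as for 26.3% of all peaks, and the weakest was 1.81e-33, for HIST2H4A.

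RefSeq gives 11 protein-coding HIST2 genes in this stretch of chromosome 1, and 3 had no listed peak of their own. They were HIST2H3C, the partner of HIST2H3A, HIST2H2BE, the H2B gene opposite HIST2H2AC, and HIST2H2AB. HIST2H3C lay 1012 bases from the peak of HIST2H2AA3, whereas on the other arm of the duplication the RefSeq span of HIST2H3A lay inside the peak of HIST2H2AA4. HIST2H2BE lay 568 bases from the peak of HIST2H2AC. A gene without a peak in the list may still be expressed or bound, since the list does not give reads outside peaks.

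Other genes of histone biology were looked for in the list by symbol. The list holds 238 gene identifiers in all, so few or none are to be found of any list of this size, and a shortage was not shown. Of 53 other replication-dependent core histone genes (HIST1, HIST3 and HIST4) 0 had a peak, as had 0 of 10 replacement core histones, which are also made outside DNA replication. Of 26 genes of histone pre-mRNA processing, among them SLBP and genes of the U7 particle that cuts these pre-mRNAs, 0 had a peak, and of 16 histone chaperones also 0. Linker histones bind the DNA between nucleosomes, and 3 of 8 had a peak. HIST1H1E stood at 2.23 (1.95 to 2.55), from 712 against 320 reads, and H1FX at 10.2 (3.71 to 39.4), from 41 against 4, both above every HIST2 member. H1F0 stood at 0.326 (0.263 to 0.402), from 118 against 362 reads, between HIST2H2AA4/HIST2H3A and HIST2H2AC. None of the 7 named neighbours flanking the histone genes, such as BOLA1 and the splicing factor gene SF3B4, had a peak.

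The non-member peaks whose ratio was nearest to that of the members together, over these 2 libraries and among 151 named peaks with at least 57.75 control reads, were those of ALDOA, a glycolytic enzyme, PSAP, a precursor of lysosomal proteins, and MZB1, an endoplasmic reticulum protein of antibody-secreting cells. Their ratios were 0.275 (0.216 to 0.347), 0.257 (0.144 to 0.437) and 0.256 (0.154 to 0.408), at distances of 0.039, 0.055 and 0.064 on the log2 scale. The labelled cell type could be looked at only through genes with a peak. The marker lists were chosen with earlier results of these data known, so the counts do not test the label. Of 13 plasma cell markers 4 had one (XBP1, MZB1, JCHAIN and ITGB7), of 5 stroma markers VIM had one, and of 5 markers each of T cells, myeloid cells and erythroid cells 0 had one.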

How the data were processed

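The data were 1 deposited peak list for 2 libraries of ARP1 cells. FastQC 0.11.5, HOMER and the build GRCh38 are named per the submitters' processing notes. The aligner, the peak caller and the treatment of reads that match several places are not given in the sources used here, and the labels' protocols also describe an antibody against m6A, whose use for these libraries is unclear. The deposited counts are whole reads per peak and library, not scaled to depth. The deposited signal columns give reads per kilobase of peak and equal the counts divided by the width. The log-odds score and the p-value of each peak are the authors' deposited values, used to describe and rank peaks.

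The 279 rows were reduced to 236 distinct peaks by chromosome, start, end and strand, and members were matched by symbol. Totals in peaks were 12068 IP and 87259 control reads, and whole-library depth is unknown. Ratios, Clopper-Pearson intervals and conditional ratios of ratios were computed with SciPy 1.17.1, and a floor of 3 control reads stood in where the control had 0, which no member needed. The interval function was tested on simulated data. Genes were named by a rule: all members, the 3 nearest peaks by ratio, and every gene with a peak on the related lists. Members and lists were chosen with earlier results of these data known. Alternatives covered the floor, the per-kilobase columns, the summary over peaks, shared and off-centre peaks, the reference ratio and the authors' adjusted p-value.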

Additional observations from a re-analysis of the deposited data

How the results depend on the processing

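Of 34 alternative values, 28 stayed within the counting interval of the value reported or within 1.5 times the count reported, 6 moved and 0 reversed. The floor and the per-kilobase columns moved no member ratio, and could not. No member had 0 control reads, and those columns equal the counts divided by the width. The H2B median over 1 peak and the H4 value without peaks of 2 families were also fixed in advance. So was the count with more IP than control reads among peaks with an authors' adjusted p-value below 1e-10, which all 6 members had. The 28 thus include values that could not change. As a median over peaks in place of summed reads, the ratio was 0.531 for H2A, 0.363 for H3 and 0.208 for all members together. With only peaks centred inside the listed gene, H2A rested on HIST2H2AA3 alone at 0.654, and by RefSeq spans, an alternative chosen after seeing the data, also at 0.654. H4 stayed at 0.150 by listed genes. By RefSeq spans it rested on HIST2H4B alone at 0.196, no longer below the 0.195 reported for H2B. H2B and H3 had no value under these centre rules or without peaks of 2 families. Leaving out each peak in turn gave 0.228 to 0.304 for all members together, the lowest without HIST2H2AA3. The number of members above the reference ratio was 5 against the median outside the rRNA interval of chromosome 21 and against other protein-coding peaks, 4 against peaks matched on control reads and 4 by the authors' score. No paired analysis was possible because each group had 1 library. The reads per peak, as few as 16 in the IP library for HIST2H4A, limit the comparison of single copies, and the grid of the peak borders limits the separation of neighbouring genes.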
